A study of Mus musculus with 4 samples.

Results

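Fam123c, Cecr6, Zkscan16, Zfp354c, Larp6, Chst12, Rab40b and Sh3bp5 are 8 of the 22492 gene symbols measured in cultured mouse hippocampal neurons. They were chosen by their FPKM, which was lower after 3 h of induced firing, both in cultures with a control lentivirus and in cultures with a hairpin against Kdm6b, a histone lysine demethylase. The choice therefore used the responses to firing, which are given below as a description and without a test.

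The cultures came from newborn (P0) pups of CD1, an outbred mouse strain. 4 groups with 1 library each were sequenced after polyA selection: Kdm6b shRNA with Bic/4AP, Kdm6b shRNA untreated, vector with Bic/4AP, and vector untreated. All cultures received a lentivirus on day 4 in vitro, either pLKO.1 expressing an shRNA (short hairpin RNA) against Kdm6b or the pLKO.1 vector, and all were harvested on day 11. Bic/4AP stands for bicuculline at 50 µM (the unit is written µm in the labels) with 4-aminopyridine at 2.5 mM, in the medium for 3 h before harvest. A single hairpin was used, and the number of pups or cultures behind a library was not given in the sources used here.

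Bicuculline blocks inhibitory GABA-A receptors and 4-aminopyridine blocks voltage-gated potassium channels, so that networks of cultured neurons fire in bursts. Bursting raises calcium in the cell and turns on immediate-early genes such as Fos, and some other transcripts become less abundant at the same time. The level of an RNA falls when its synthesis slows, when its decay speeds up, or both, and a measurement of level does not separate these.

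The roles of the 8 genes are varied, with a pair of zinc finger genes among them. Fam123c, now Amer3, belongs to the Amer family, whose proteins bind the tumour suppressor Apc, a part of the complex that degrades β-catenin. Cecr6, now Tmem121b, encodes a predicted membrane protein that takes its older name from the human cat eye syndrome region. Zkscan16 and Zfp354c encode zinc finger DNA-binding proteins of the KRAB class, most of which repress transcription through the corepressor Trim28. Larp6 is a La-related RNA-binding protein, known from human cells to bind the stem-loop of type I collagen mRNAs. Chst12 is a Golgi sulfotransferase that adds sulfate to chondroitin, the sugar chain of perineuronal nets. Rab40b is a small GTPase with a SOCS box, which recruits a ubiquitin ligase. Sh3bp5, also called Sab, holds the kinase JNK at the outer mitochondrial membrane and acts as an exchange factor for Rab11.

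The RNA matched the treatments named in the labels. Kdm6b stood at 4.83 FPKM (a level scaled by transcript length and by library size) with Bic/4AP and 2.73 FPKM untreated in shRNA cultures, against 13.1 and 6.74 FPKM in vector cultures, so that the hairpin cultures held 36.8% of the vector level with Bic/4AP and 40.6% untreated. Fos stood at 765 FPKM with Bic/4AP and 15.3 FPKM untreated in shRNA cultures, and at 771 and 12.5 FPKM in vector cultures. Npas4 and Arc, also activity-induced, rose as well, by 7.31 and 5.33 in shRNA and 7.08 and 4.81 in vector cultures on the log2(FPKM + 1) scale. Neuronal RNA was abundant, with 9 of 9 pan-neuronal markers at an FPKM of at least 1 in every library and a summed level of 2011 to 2640 FPKM. Astrocyte markers were as abundant, with 7 or 8 of 8 at that level and sums of 2634 to 2976 FPKM, so the RNA is that of a mixed culture. Between 12976 and 13141 genes reached an FPKM of 1 in a library, and the authors' upper bound lay 4.21% to 4.47% above the value in the median gene among those at 5 FPKM or more. With no replicates there is no test and no p-value here. The authors' bounds describe counting error and the assignment of reads in 1 library and leave out differences between cultures.

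The 3 stretches printed next are start-site windows of members, shown with the motif found in each in capitals. Each holds 300 bases around the start, most of them upstream, and comes from RefSeq (GRCm38.p6). Fam123c lies at chr1:34579443-34579742 on the plus strand and its capitals mark TGACG, the core of a cAMP response element. Cecr6 lies at chr6:120493897-120494196 on the minus strand and its capitals mark GCGNGGGCG, the Egr motif, read on the opposite strand. Rab40b lies at chr11:121388202-121388501 on the minus strand and its capitals mark CCAAT on either strand. These coordinates belong to that build, not to the mm9 build of the expression tables.
Fam123c: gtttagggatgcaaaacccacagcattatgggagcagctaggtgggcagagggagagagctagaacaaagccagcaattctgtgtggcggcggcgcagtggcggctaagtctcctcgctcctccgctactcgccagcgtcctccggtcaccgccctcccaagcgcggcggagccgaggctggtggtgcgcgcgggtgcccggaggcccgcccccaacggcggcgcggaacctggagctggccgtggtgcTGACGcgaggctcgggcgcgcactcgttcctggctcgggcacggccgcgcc
Cecr6: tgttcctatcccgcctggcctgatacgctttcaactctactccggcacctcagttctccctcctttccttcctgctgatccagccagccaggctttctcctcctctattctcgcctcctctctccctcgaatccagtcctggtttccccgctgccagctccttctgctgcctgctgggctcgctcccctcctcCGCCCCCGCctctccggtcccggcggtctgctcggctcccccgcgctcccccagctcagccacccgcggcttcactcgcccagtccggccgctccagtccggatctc
Rab40b: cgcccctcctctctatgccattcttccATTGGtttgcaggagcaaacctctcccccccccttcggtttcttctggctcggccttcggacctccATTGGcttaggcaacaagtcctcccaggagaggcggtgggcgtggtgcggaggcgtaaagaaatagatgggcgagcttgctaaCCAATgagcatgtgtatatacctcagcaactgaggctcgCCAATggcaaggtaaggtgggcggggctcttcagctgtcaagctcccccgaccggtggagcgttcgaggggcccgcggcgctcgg

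Windows were at hand for 6 of the 8 genes, the exceptions being Zkscan16 and Zfp354c. With 6 of 8 covered, and 78.8% of all compared genes, a comparison of the set with all genes is void, and the motifs are given gene by gene. TGACG was in the Fam123c window and in 30.5% of the 13236 windows of compared genes. GCGNGGGCG was in the windows of Cecr6 and Larp6 and in 10.7% of all windows. CCAAT occurred 4 times in the Rab40b window and 2 times in that of Chst12, and 37.7% of all windows held it. GGGCGG, the GC box, was in 6 of the 7 windows of the 6 genes, 1 for each gene, and in 62.6% of all windows. The other window of Sh3bp5 lacked it. The letters TGACGTCA (the full cAMP response element), TGANTCA (AP-1), TATAAA and CACGTG (the E-box) and the MEF2 site were in none of the 7 windows of these 6 genes, and in 3.04%, 5.03%, 7.25%, 9.63% and 3.00% of all windows. Both strands were searched, and TGACG and TGACGTCA overlap by construction.

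Untreated FPKM ran from 3.48 for Zkscan16 to 26.01 for Sh3bp5 in shRNA cultures, with a median of 8.87, and from 3.89 to 33.3 for the same genes in vector cultures, with a median of 9.90. In untreated vector cultures the order by FPKM, which is a level per length, was Sh3bp5, Rab40b, Zfp354c, Larp6, Fam123c, Chst12, Cecr6 and Zkscan16. The bounds of Larp6, Fam123c, Chst12 and Cecr6 overlapped from each to the next, so these neighbours are not ordered beyond their counting error. Among compared genes in that library the levels lay between percentile 19.1 for Zkscan16 and percentile 77.5 for Sh3bp5. All rows were marked as properly quantified, each gene had 1 row, and no locus of another row overlapped any of the 8.

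**Figure D1:**
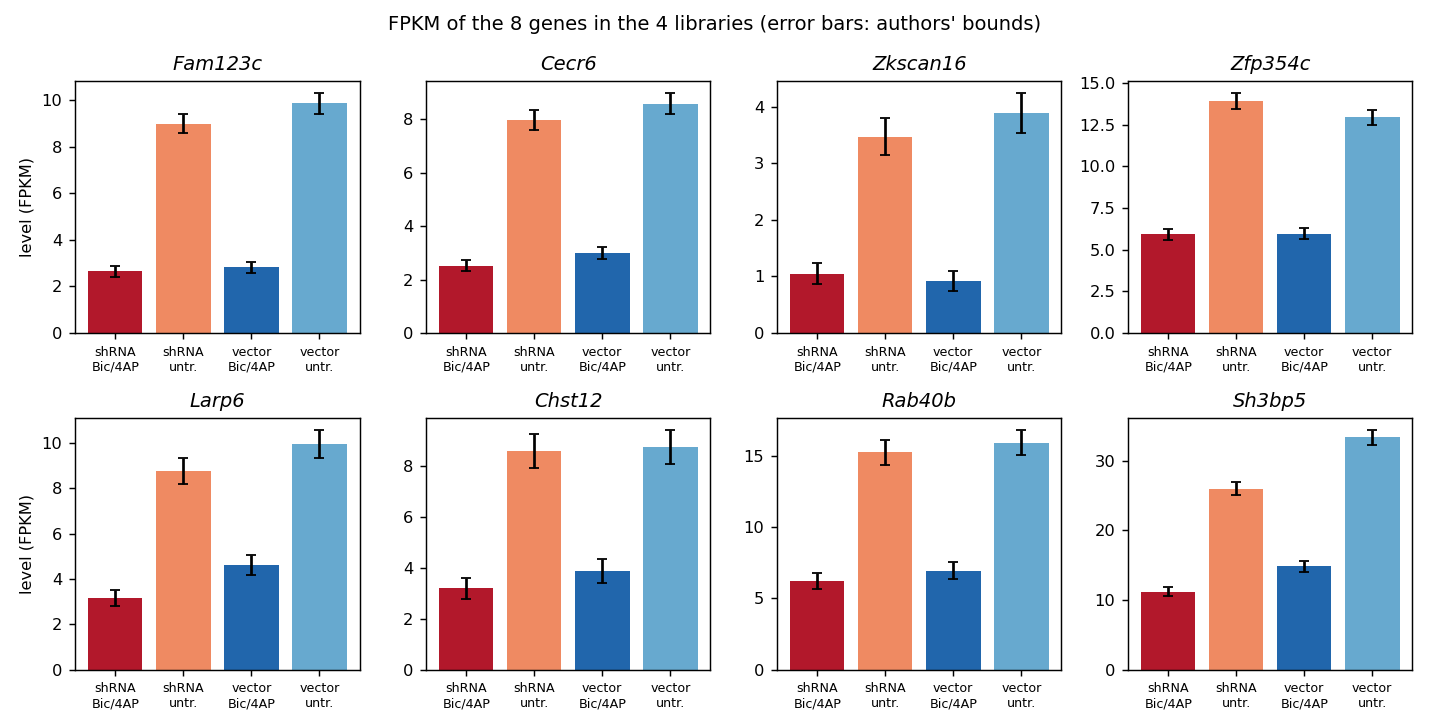
Level in FPKM of each of the 8 genes in the 4 libraries (shRNA with Bic/4AP, shRNA untreated, vector with Bic/4AP, vector untreated), 1 panel per gene with its own axis from 0. Bars are the deposited values of 1 library each and error bars the authors' bounds, and in every panel both Bic/4AP bars lie below both untreated bars.

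The smallest share of RNA left after firing was that of Fam123c in shRNA cultures and of Zkscan16 in vector cultures. Fam123c (chr1:34636538-34647789, mm9) stood at 2.64 FPKM (bounds 2.41 to 2.88) with Bic/4AP and 8.998 FPKM (8.58 to 9.42) untreated in shRNA cultures. In vector cultures it stood at 2.82 FPKM (2.57 to 3.07) with Bic/4AP and 9.86 FPKM (9.41 to 10.3) untreated. Both stimulated libraries were low and both untreated libraries high, with no overlap of bounds, and 29.4% and 28.6% of the untreated level remained in shRNA and vector cultures. The differences were −1.46 in shRNA and −1.51 in vector cultures, on the log2(FPKM + 1) scale used for every difference here, which understates the change of low genes. The cultures hold several cell types, and fewer cells of a type and less RNA per cell cannot be told apart in such RNA.

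Cecr6, the membrane protein gene (chr6:120438957-120443825), stood at 2.52 FPKM (2.30 to 2.73) with Bic/4AP and 7.97 FPKM (7.60 to 8.34) untreated in shRNA cultures. Its vector libraries stood at 2.99 FPKM (2.75 to 3.23) with Bic/4AP and 8.58 FPKM (8.19 to 8.98) untreated. About the same share was left on both backgrounds, 31.6% with the hairpin and 34.9% with vector, and the log2 differences were −1.35 and −1.26.

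The zinc finger gene Zkscan16 (chr4:58956500-58971227) was the least abundant of the 8. It stood at 1.05 FPKM (0.860 to 1.23) with Bic/4AP and 3.48 FPKM (3.15 to 3.80) untreated in shRNA cultures, and at 0.923 FPKM (0.744 to 1.10) and 3.89 FPKM (3.53 to 4.24) in vector cultures. The share left was 30.1% with the hairpin and 23.7% with vector. Taking the bounds at their extremes, these shares could lie anywhere from 22.6% to 39.1% and from 17.5% to 31.2%, so the backgrounds are not separated at this depth. The log2 differences were −1.13 and −1.35.

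Zfp354c (chr11:50624587-50641233), the other zinc finger gene, stood at 5.92 FPKM (5.61 to 6.23) with Bic/4AP and 13.9 FPKM (13.5 to 14.4) untreated in shRNA cultures. In vector cultures the levels were 5.96 FPKM (5.64 to 6.29) and 12.9 FPKM (12.5 to 13.4). The stimulated levels were nearly equal on both backgrounds and 42.5% and 46.0% of the untreated level was left in shRNA and vector cultures, with log2 differences of −1.11 and −1.002. Zfp354a and Zfp354b are close relatives, and how reads that fit more than 1 of them were assigned is not given in the sources used here.

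Larp6 (chr9:60560928-60586608), the RNA-binding protein gene, had the widest gap between backgrounds. It stood at 3.17 FPKM (2.81 to 3.52) with Bic/4AP and 8.75 FPKM (8.17 to 9.33) untreated in shRNA cultures, and at 4.62 FPKM (4.18 to 5.07) and 9.94 FPKM (9.31 to 10.6) in vector cultures. The share left was 36.2% (30.1% to 43.1% from the bounds) with the hairpin and 46.5% (39.5% to 54.4%) with vector, and these ranges overlap. The log2(FPKM + 1) difference was −1.23 in shRNA cultures and −0.96 in vector cultures. On that scale, though not in FPKM, the fall in vector cultures was just short of 2-fold.

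Chst12 (chr5:140981563-141001192), the chondroitin sulfotransferase gene, stood at 3.19 FPKM (2.78 to 3.61) with Bic/4AP and 8.60 FPKM (7.94 to 9.27) untreated in shRNA cultures. With vector it stood at 3.86 FPKM (3.40 to 4.33) and 8.75 FPKM (8.06 to 9.43). Its untreated levels differed by less than their bounds between backgrounds, and 37.1% and 44.2% was left in shRNA and vector cultures, with log2 differences of −1.20 and −1.002.

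Rab40b (chr11:121217435-121249565), the small GTPase gene, stood at 6.19 FPKM (5.63 to 6.75) with Bic/4AP and 15.2 FPKM (14.4 to 16.1) untreated in shRNA cultures, and at 6.94 FPKM (6.33 to 7.55) and 15.9 FPKM (15.0 to 16.8) in vector cultures. It was the member closest to the average pattern of the 8, with 40.6% and 43.6% left in shRNA and vector cultures and log2 differences of −1.17 and −1.09.

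Sh3bp5 (chr14:32187150-32249219), the JNK-docking protein gene, was the most abundant. It stood at 11.2 FPKM (10.5 to 11.8) with Bic/4AP and 26.01 FPKM (25.04 to 26.97) untreated in shRNA cultures, and at 14.8 FPKM (14.1 to 15.6) and 33.3 FPKM (32.2 to 34.4) in vector cultures. Both shRNA levels lay below the vector levels of the same treatment, while the share left was alike, 42.9% with the hairpin and 44.5% with vector. The log2 differences were −1.15 and −1.12.

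A difference of at least 1 on the log2 scale is called 2-fold here, for genes that reached 1 FPKM in either library compared. On that rule 8 of the 8 genes were 2-fold lower with Bic/4AP in shRNA cultures, where 0.158% of 13320 compared genes were, and 7 of the 8 in vector cultures, where 0.272% of 13217 were. On both backgrounds at once 8 of 8 were below 0, beside 53.4% of 13079. Since the genes were chosen for these falls, nothing is read from those counts. They also depend on the scale, since with a pseudocount of 5 none of the 8 was 2-fold lower on either background. Bounds with and without Bic/4AP did not overlap for any of the 8 on either background, with the stimulated level the lower, as was the case for 37.6% of compared genes in shRNA cultures and 37.0% in vector cultures. The median log2 difference of the 8 was −1.18 in shRNA and −1.10 in vector cultures, beside −0.08 and −0.07 over all compared genes. Ranked from the lowest difference, the 8 stood at places 2 to 10 in shRNA cultures and 3 to 47 in vector cultures. Their summed level was 35.8 FPKM with Bic/4AP and 93.0 FPKM untreated in shRNA cultures, and 43.0 and 103 FPKM in vector cultures.

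**Figure D2:**
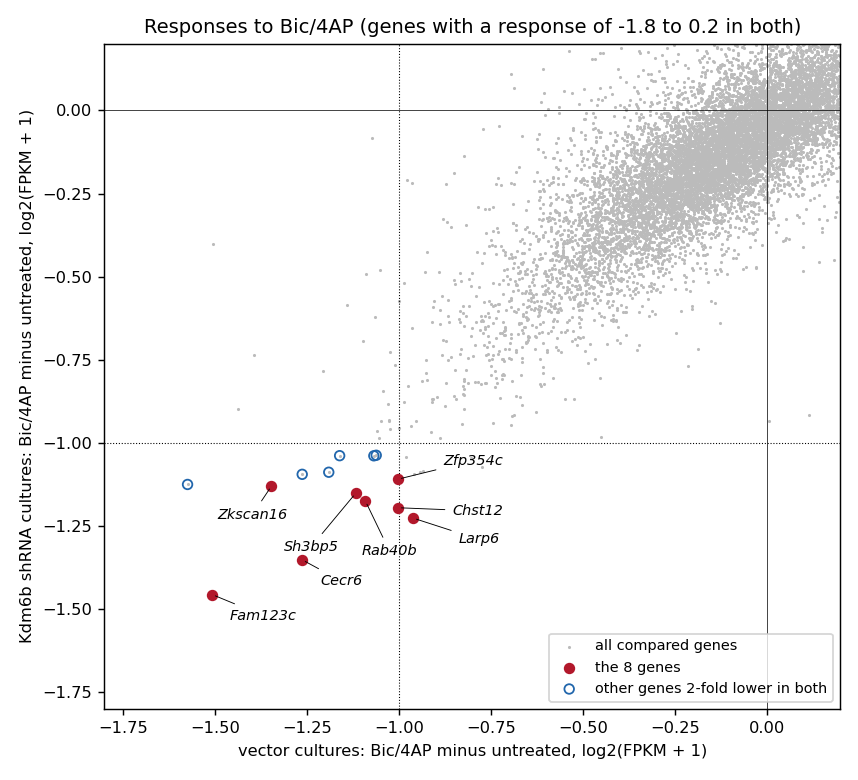
Difference between Bic/4AP and untreated in log2(FPKM + 1), in vector cultures (horizontal) and Kdm6b shRNA cultures (vertical), for the 10431 of 13079 compared genes inside the axes. Filled points are the 8 genes and open circles the other genes at least 2-fold lower on both backgrounds. Dotted lines mark a 2-fold fall on this scale, which Larp6 missed in vector cultures at −0.96.

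Neuronal marker lists did not move one way with Bic/4AP. The median log2 difference was −0.11 in shRNA and −0.26 in vector cultures for 9 pan-neuronal markers, and −0.07 and −0.27 for 8 excitatory neuron markers, beside −0.08 and −0.07 over all compared genes. The means of these lists were above 0 in shRNA cultures, at 0.08 and 0.09, and below 0 in vector cultures, at −0.12 and −0.25. In vector cultures 7 of 9 and 6 of 8 were below 0 (77.8% and 75%), beside 59.7% of all compared genes. In shRNA cultures 6 of 9 and 5 of 8 were (66.7% and 62.5%), beside 65.3%. For 9 inhibitory neuron markers the medians were 0.28 and −0.02, with 7 of 9 above 0 in shRNA cultures. Astrocyte markers had medians of 0.09 and −0.05. None of the markers in these 4 lists was 2-fold lower on either background, beside 0.158% of compared genes in shRNA and 0.272% in vector cultures. Nefl, the neurofilament light chain, was 2-fold higher on both (1.33 in shRNA and 1.04 in vector cultures). The part of cell makeup in the falls of the 8 genes was not tested.

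At the limit of the rule, 13 of 13079 genes (0.0994%) were 2-fold lower on both backgrounds, 7 of the 8 genes and 6 others. The 6 others were Sstr3, a somatostatin receptor (−1.13 in shRNA and −1.57 in vector cultures), Oprl1, the nociceptin receptor (−1.09 and −1.26), Kcng1, a potassium channel subunit (−1.09 and −1.19), Lzts1 (−1.04 and −1.07), Grm7, a metabotropic glutamate receptor (−1.04 and −1.16), and Gm1568 (−1.04 and −1.06). Just outside it stood Prrt3 (−0.98 in shRNA and −1.06 in vector cultures), Gpr61 (−1.04 and −0.98) and Ankrd43 (−0.96 and −1.06). Inside it the closest members were Zfp354c and Chst12, both at −1.002 in vector cultures.

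Other genes shared the pattern of the 8 over the 4 libraries. Likeness was taken as the Euclidean distance between a gene's log2(FPKM + 1) profile, centred on its own mean, and the mean profile of the 8. Kcng1 was nearest at 0.104, followed by Oprl1 at 0.146, Lzts1 at 0.168, Gpr61 at 0.183 and Prr12 at 0.187. The 8 genes themselves lay between 0.0700 for Rab40b and 0.298 for Fam123c.

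Levels of the 8 genes in hairpin cultures were set against those in vector cultures of the same treatment. The choice of genes did not use this comparison, although it rests on the same 4 libraries. With 1 hairpin and 1 library per group, loss of Kdm6b cannot be told apart from other differences between the cultures. None of the 8 was 2-fold lower or higher with the hairpin, where 0.536% of compared genes were 2-fold lower and 0.189% higher with Bic/4AP, and 0.669% lower and 0.414% higher untreated. With Bic/4AP the 8 stood at 68.5% (Larp6) to 113% (Zkscan16) of the vector level, and untreated at 78.0% (Sh3bp5) to 108% (Zfp354c). 7 of 8 were below 0 with Bic/4AP, beside 43.6% of all compared genes, and 7 of 8 untreated, beside 41.1%. The medians of the 8 were −0.16 with Bic/4AP and −0.11 untreated, beside 0.03 and 0.05 over all genes.

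Sh3bp5 was the only one of the 8 with bounds that did not overlap between hairpin and vector under both treatments. It had 75.3% of the vector level with Bic/4AP (67.4% to 84.0% from the bounds) and 78.0% untreated (72.7% to 83.7%), and log2 differences of −0.38 and −0.35. Larp6 had 68.5% of the vector level with Bic/4AP (55.4% to 84.4%) and 88.0% untreated (77.3% to 100.1%). Cecr6 had 84.0% with Bic/4AP and 92.9% untreated, and its bounds were apart with Bic/4AP. Zfp354c was the only one higher with the hairpin by more than its bounds, at 108% untreated, and had 99.3% with Bic/4AP. Bounds did not overlap for 3 of 8 genes with Bic/4AP, beside 49.7% of all compared genes, and for 2 of 8 untreated, beside 55.2%.

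**Figure D3:**
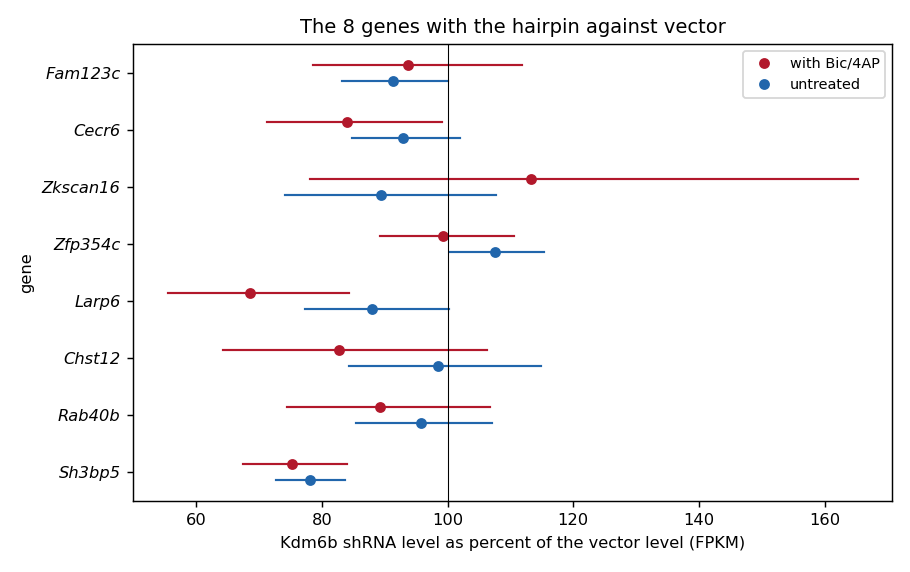
Level of each of the 8 genes in Kdm6b shRNA cultures as a percent of the level in vector cultures, with Bic/4AP (upper point of each gene) and untreated (lower point). Lines give the widest range that the authors' bounds of both libraries allow, and the vertical line marks equal levels, which the lines of Sh3bp5 (both), Larp6 and Cecr6 (with Bic/4AP) and Zfp354c (untreated, above it) do not reach.

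The differences between the responses of the backgrounds, shRNA minus vector, ran from −0.27 for Larp6 to 0.22 for Zkscan16 with a median of −0.09, beside −0.02 over all genes, and 6 of 8 were below 0, beside 54.9%. None of the 8 differed 2-fold, which 0.126% of compared genes did downwards and 0.111% upwards. The share left with Bic/4AP, taken with its widest range from the bounds, overlapped between backgrounds for 8 of 8 genes.

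Marker levels of other cell types also differed between hairpin and vector cultures. Microglia markers summed to 23.0 FPKM with Bic/4AP and 22.4 FPKM untreated in shRNA cultures, against 49.8 and 52.3 FPKM in vector cultures. In each shRNA library 7 of 10, and in each vector library 8 of 10, were at 1 FPKM or more, with none listed at 0. With Bic/4AP 6 of 8 compared were lower with the hairpin (median −0.86), beside 43.6% of all compared genes. Untreated, 7 of 8 were lower (median −0.89), beside 41.1%. P2ry12 was higher with the hairpin under both treatments (0.10 and 0.24), and Aif1 with Bic/4AP (0.04). Oligodendrocyte lineage markers summed to 69.0 and 72.5 FPKM in shRNA cultures, against 93.8 and 85.2 FPKM in vector cultures, with 5 of 9 and 6 of 9 at 1 FPKM or more. Excitatory neuron markers summed to 419.7 and 478.3 FPKM in shRNA cultures, against 481 and 662 FPKM in vector cultures. With Bic/4AP 5 of these 8 were higher with the hairpin, with a median log2 difference of 0.11. The share below 0 was 37.5%, beside 43.6% of all compared genes. Slc17a7 took much of the sum with Bic/4AP, at 149.8 FPKM in shRNA and 206.3 FPKM in vector cultures. Untreated, 8 of 8 were lower with the hairpin, with a median of −0.23, beside 41.1% of all compared genes. Of 9 pan-neuronal markers, 8 were lower with the hairpin untreated (median −0.15), beside 41.1% of all compared genes. With Bic/4AP 3 of the 9 were lower (median 0.07), beside 43.6%. Inhibitory neuron markers summed to 651 and 425 FPKM in shRNA cultures, against 859.3 and 859.8 FPKM in vector cultures. Sst took much of these sums, at 413 and 225 FPKM in shRNA and 542 and 539 FPKM in vector cultures. Of the 9, 7 were lower with the hairpin with Bic/4AP (median −0.27), beside 43.6% of all compared genes. Untreated, 8 of the 9 were lower (median −0.50), beside 41.1%. All 8 excitatory and all 9 inhibitory markers reached 1 FPKM in every library. The part of these differences in the levels of the 8 genes was not tested.

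Close paralogs of the 8 genes moved in both directions with Bic/4AP. None was listed for Cecr6 or Zkscan16. Of 13 paralogs, 12 reached an FPKM of 1 in some library, and 7 were below 0 on both backgrounds, beside 53.4% of all compared genes. None differed 2-fold in either direction on the log2(FPKM + 1) scale. Of all compared genes 0.158% were 2-fold lower and 2.08% higher in shRNA cultures, and 0.272% and 2.22% in vector cultures, so nothing is read from that count. Their log2 differences lay between −0.78 and 0.39 in shRNA cultures and between −0.74 and 0.49 in vector cultures. The lowest was Zfp354a, with 1.13 FPKM with Bic/4AP and 2.67 FPKM untreated in shRNA cultures and 0.960 and 2.27 FPKM in vector cultures (−0.78 and −0.74). Its share left was 42.4% in shRNA and 42.3% in vector cultures, close to the 42.5% and 46.0% of Zfp354c, and the pseudocount of 1 makes the log2 difference smaller at these low levels. Zfp354b had −0.47 and −0.34. The highest in vector cultures was Chst11, another chondroitin sulfotransferase, with 33.3 FPKM with Bic/4AP and 26.8 FPKM untreated in shRNA cultures and 35.3 and 24.9 FPKM in vector cultures. Chst11 thus stood at 124% and 142% of its untreated level in shRNA and vector cultures, opposite in sign to Chst12, and with bounds that did not overlap.

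The remaining paralogs lay on both sides of 0. Fam123a had 0.39 in shRNA and 0.19 in vector cultures and Fam123b −0.31 and −0.51, beside −1.46 and −1.51 for Fam123c. Rab40c had −0.46 and −0.34, and Sh3bp5l −0.22 and −0.28. Among La-related genes, Larp1b had 0.17 and 0.22, Larp4 0.15 and 0.25, Larp4b −0.06 and −0.11, and Larp7 0.04 and 0.28. Their bounds with and without Bic/4AP were apart for each of them in vector cultures, and for Larp4 alone in shRNA cultures. Chst14 had −0.21 and −0.09, and Chst13 was listed at 0 in all 4 libraries.

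No gene listed from the pathways around the 8 genes was 2-fold lower on the log2(FPKM + 1) scale. Of all compared genes only 0.158% were in shRNA and 0.272% in vector cultures, so nothing is read from that count. With a pseudocount of 0.1, 1 listed gene was 2-fold lower on each background. Zfp354a had 42.4% in shRNA and 42.3% in vector cultures of its untreated FPKM left. Of 92 listed genes that share a complex, a pathway or a family with 1 of the 8, 84 were compared in shRNA and 86 in vector cultures. The share below 0 was 63.1% in shRNA and 62.8% in vector cultures, beside 65.3% and 59.7% of all compared genes. The medians were −0.08 and −0.11, beside −0.08 and −0.07 over all compared genes. Under median-ratio scaling the median in shRNA cultures was 0.004, beside −0.0006 over all compared genes. The 2-fold higher genes were Acan, the core protein of aggrecan (1.25 in shRNA and 0.89 in vector cultures, so 2-fold in shRNA cultures), and Jun, the immediate-early target of JNK (1.77 and 2.21), where 2.08% of all compared genes were 2-fold higher in shRNA and 2.22% in vector cultures.

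The gene with the lowest mean response in each list was Apc2 among Amer and β-catenin complex genes (−0.83 in shRNA and −0.74 in vector cultures), Zfp354a among KRAB and SCAN zinc finger relatives, Larp1 among La-related and collagen genes (−0.21 and −0.24), Chst15 among chondroitin sulfate genes (−0.57 and −0.87), Rab11fip4 in the Rab40 and Rab11 list (−0.30 and −0.57) and Mapk8ip2, a JNK scaffold (−0.68 and −0.63). The highest, besides Acan and Jun, were Fam123a, Zkscan5 (0.30 and 0.31), Larp4 and Rab11fip1 (0.29 and 0.46). Type I collagen transcripts, the known partners of Larp6 protein, stood at 3.61 FPKM with Bic/4AP and 3.15 FPKM untreated in shRNA cultures for Col1a1, and at 4.81 and 4.50 FPKM in vector cultures. Col1a2 differed as little, by 0.13 and 0.12.

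Zkscan16 and Zfp354c lay at the low end of a gene class in which most members were below 0. Of genes whose symbol is Zfp, Zkscan or Zscan with a number, 289 of 337 (85.8%) were below 0 in shRNA cultures, beside 65.3% of all compared genes, and 263 of 335 (78.5%) in vector cultures, beside 59.7%. The medians were −0.26 and −0.21. On the log2(FPKM + 1) scale Zkscan16 and Zfp354c were the 2 zinc finger genes that were 2-fold lower, on both backgrounds. Of all compared genes, 0.158% were 2-fold lower in shRNA and 0.272% in vector cultures. Zkscan16 and Zfp354c were chosen for these falls and without them the count was 0, so nothing is read from it. With both included, the count was 16 in shRNA and 11 in vector cultures with a pseudocount of 0.1, beside 97 and 130 over all compared genes. It was 0 and 0 with a pseudocount of 5, and 1 in vector cultures under median-ratio or upper-quartile scaling. Zfp36, which encodes the RNA-binding protein tristetraprolin, was 2-fold higher (1.34 and 1.68), and so was Zfp184 (1.23 and 1.304). The share 2-fold higher over all compared genes was 2.08% in shRNA and 2.22% in vector cultures. The class had lower levels than genes in general, with a median untreated FPKM of 5.18 in shRNA and 4.79 in vector cultures, beside 12.6 and 12.5, and the part of level in this difference was not tested.

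**Figure D4:**
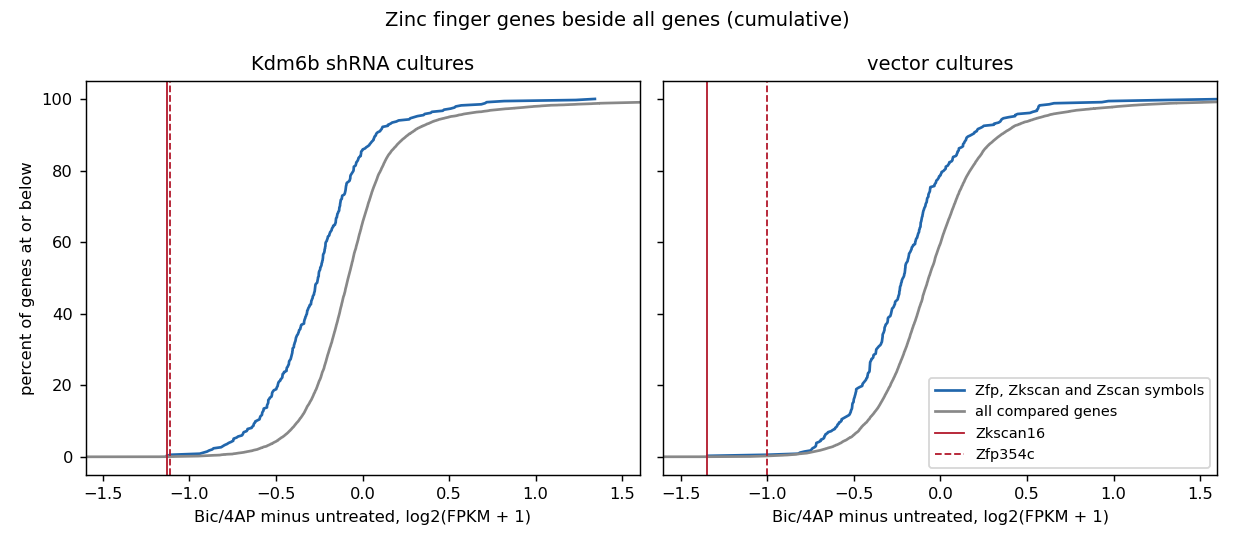
Percent of genes at or below a given difference between Bic/4AP and untreated (log2(FPKM + 1)), for Zfp, Zkscan and Zscan symbols and for all compared genes, in Kdm6b shRNA cultures (left) and vector cultures (right). The curve of the zinc finger symbols lies to the left, with medians of −0.26 and −0.21 against −0.08 and −0.07, and the vertical lines show Zkscan16 and Zfp354c.

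None of the 8 transcripts had more exons than the median gene. In the longest annotated coding transcripts (GENCODE mouse release 21), which were at hand for 8 of 8 genes and 12590 of 13079 compared genes (96.3%), the exon numbers were 2 for Fam123c, 1 for Cecr6, 6 for Zkscan16, 5 for Zfp354c, 3 for Larp6, 2 for Chst12, 6 for Rab40b and 9 for Sh3bp5. Their median was 4, beside 9 over all compared genes. Cecr6 was in a class of 2.56% of genes with 1 exon. Transcript length had a median of 2739 nt, beside 3203 nt over all compared genes.

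The 3′ UTRs (untranslated regions) were from 449 nt in Zkscan16 to 3478 nt in Zfp354c, with 3 of 8 above the median of all genes, 1218 nt. ATTTA, the core of AU-rich elements that shorten the life of many mRNAs, was present in 8 of 8 and in 70.8% of 12419 genes. It occurred 8 times in Zfp354c and 6 times in Sh3bp5, and 1 to 3 times in the others. The median count was 2 for the 8 genes and 2 over all genes, with 3 of the 8 above it. The longer word TATTTAT was in 4 of 8 (Fam123c, Cecr6, Zfp354c and Sh3bp5) and in 31.2% of all genes. It is a preferred site of tristetraprolin, an RNA-binding protein that promotes decay. 1 site of each of the 4 genes is printed from the GENCODE transcripts with the word in capitals, to show what surrounds it.
Fam123c: tcatcttTATTTATTTATtttctgg
Cecr6: cctctgggcTATTTATtttggctct
Zfp354c: acattttacTATTTATgacatactg
Sh3bp5: tgcagatcaTATTTATacatgaaat
The Fam123c site holds overlapping copies of the word, and that of Sh3bp5 begins close to the stop codon, at base 34 of its 3′ UTR.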

How the data were processed

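The authors deposited FPKM values with a lower and an upper bound, in 22878 rows for each of 4 libraries, 1 per group. Per the submitters' processing notes, the mouse build was mm9 and the tools included Cufflinks 2.0.2, TopHat2 2.0.8b and CASAVA 1.8. Their roles, the annotation and the read totals are not given in the sources used here.

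FPKM and bounds were summed per symbol. Symbols with a failed row in any library (8 to 19 rows each) and 727 small RNA symbols were left out, leaving 21723 genes, used without further scaling. Starts count from 0 in the tables (checked on 576 microRNA genes, of which 97.7% then had their annotated length), and 1 was added to each start printed. A gene was compared at an FPKM of at least 1 in a compared library. Differences were taken in log2(FPKM + 1), a pseudocount of 1. A range of a share divides opposite bounds of the 2 libraries.

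The members and lists were chosen with earlier results of these data known. Named genes were the 8, Kdm6b and stimulation genes (Fos, Npas4 and Arc), other genes 2-fold lower on both backgrounds, the 3 nearest outside, paralogs, the extremes of each list and the 5 nearest patterns. Jun, Acan, Nefl, the zinc finger genes that were 2-fold higher and the collagen genes were added by their values or role after these were seen. 10 alternatives changed 1 choice each. The scripts were tested on simulated data (Python 3.11.15, pandas 2.3.3, numpy 2.4.6, matplotlib 3.10.9).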

Additional observations from a re-analysis of the deposited data

Results flagged for a closer look

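The differences between hairpin and vector cultures of 2 genes had opposite signs under the 2 treatments, which is why they are set out here. For Zkscan16 the log2 difference was 0.09 (0.0886) with Bic/4AP and −0.13 (−0.127) untreated. For Zfp354c it was −0.0087 with Bic/4AP and 0.10 (0.0982) untreated. With 1 library per group the difference between treatments was not tested. The bounds of hairpin and vector levels overlapped for Zkscan16 under both treatments and for Zfp354c with Bic/4AP.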

How the results depend on the processing

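All 158 alternative values of the members' Bic/4AP responses were below 0, but the genes were chosen for that sign, so nothing is read from it. Changing the filter, requiring separate bounds, keeping small RNA genes or keeping the highest row left each compared value as it was. The number of members 2-fold lower was 8 in shRNA and 7 in vector cultures, 0 and 0 with a pseudocount of 5, 8 and 8 with 0.1, and 8 and 5 under median-ratio or upper-quartile scaling. Scaling moved the median of all genes by under 0.1. The related lists' median in shRNA cultures, −0.08, was 0.004 under median-ratio scaling. The median of all genes there moved alike, from −0.08 to −0.0006.

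Counts that moved by over 1.5 times follow, and the cause was not tested beyond the setting itself. The count of genes 2-fold lower on both backgrounds, 13, was 54 with a pseudocount of 0.1, 0 with 5, 28 with small RNA genes kept and 8 under median-ratio scaling. The count of all genes 2-fold lower with Bic/4AP was 97 in shRNA and 130 in vector cultures with 0.1, 1 and 0 with 5, and 92 and 92 with small RNAs kept, and 22 in vector cultures under median-ratio scaling. Those 2-fold higher were 160 and 171 with 5. Between hairpin and vector with Bic/4AP, 115 genes were lower and 105 higher with 0.1, 26 and 4 with 5, and 133 and 79 with small RNAs kept, and 13 were higher at an FPKM of at least 5. Untreated, 149 were lower and 149 higher with 0.1, 32 and 11 with 5, and 160 and 117 with small RNAs kept.

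Of zinc finger genes, 16 in shRNA and 11 in vector cultures were 2-fold lower with 0.1, 0 and 0 with 5, 1 and 1 at an FPKM of at least 5, and 1 in vector cultures under median-ratio or upper-quartile scaling. Higher ones were 0 and 1 with 5, 1 and 1 at an FPKM of at least 5, and 4 in vector cultures under median-ratio scaling. Of related genes, 1 was lower on each background with 0.1. Higher ones were 2 in vector cultures with 0.1, and 1 in shRNA cultures with 5 or at an FPKM of at least 5.

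No paired analysis was possible because each group has 1 library. Nor can a replicate be left out. With an FPKM of at least 5, Zkscan16 is not compared.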
